A study of Homo sapiens with 16 samples.

Results

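Genistein, a soy isoflavone that binds estrogen receptors, was compared with its vehicle in T-47D cells, a luminal human breast cancer line that carries estrogen and progesterone receptors. The comparison covers 4 of the 16 RNA sequencing libraries of the study, chosen by their titles: 2 T-47D libraries given 100 nM genistein and 2 given 0.02% DMSO, each for 8 h. Before treatment all cells spent 5 days in RPMI-1640 free of phenol red, supplemented with 10% serum stripped by charcoal and dextran, a medium low in steroid hormones, so the vehicle cells are hormone-deprived as well. The other libraries described here are T-47D cells given 10 nM 17β-estradiol or 100 nM bisphenol A (BPA, a plastics monomer) for 8 h, with 2 libraries each, and ECC-1 cells, an endometrial cancer line, given 100 nM genistein or 0.02% DMSO, with 2 libraries each. The ECC-1 libraries given 10 nM 17β-estradiol or 100 nM BPA, 2 each, enter only through the shared spread, the scaling and the filter of the fit. A single line stands for breast cancer cells here, and each compound was given at 1 dose and 1 time.

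Estrogen receptor alpha, the product of ESR1, is a transcription factor that changes shape when a ligand fills its pocket, binds estrogen response elements, mostly at distant enhancers, and recruits coactivators. Its classical targets in breast cancer cells include GREB1, PGR, TFF1, MYC and CXCL12, and many genes of adhesion, cytokine and stress signalling fall under its ligands. Genistein occupies the same pocket as estradiol and is also known as an inhibitor of tyrosine kinases at doses well above those of its receptor binding.

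Levels are scaled RPKM (reads normalised to transcript length and sequencing depth, then divided by a scale factor per library), given first for DMSO replicates 1 and 2 and then for genistein replicates 1 and 2. Changes are log2 differences of scaled RPKM + 0.5, so folds of low genes are smaller than the ratios of their levels. A gene was called raised or lowered at an adjusted p under 0.05, from limma's moderated test with Benjamini-Hochberg adjustment over 13827 genes in 1 fit of all 16 libraries. Every adjusted p below comes from that test unless another fit is named. Whether the 2 replicates of a group were separate cultures is not stated in the labels, so p-values measure only the spread between these samples, which may be technical.

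Sequencing depth, read from the spacing of low RPKM values, was 17.41 to 29.39 M reads over the 16 libraries and 18.08 to 25.69 M over the 4 compared here. The SD of the difference between replicates 1 and 2 over genes was 0.187 on the log2 scale for DMSO, 0.211 for genistein, 0.164 for BPA and 0.415 for estradiol, so the estradiol libraries stood apart. The fit shares 1 spread over all groups, and the counts against DMSO and BPA in T-47D and between the lines are therefore also given from a fit of the 12 libraries without estradiol. The luminal markers KRT8 (1973 and 2005 with DMSO) and KRT19 (1493 and 1484) were abundant. In ECC-1 with DMSO KRT8 was at 2182 and 2282 and KRT19 at 147 and 155, so KRT8 does not set the breast line apart. Of the 17 luminal markers listed, 1 was under 1 scaled RPKM in all 4 libraries. Summed levels of 8 endothelial markers stayed between 0.24 and 0.538 and those of 10 leukocyte markers between 5.51 and 6.66, with EMCN and CD3D at 0 in all 4 libraries. The 10 fibroblast markers summed to 19.9 to 21.6, with 7 of them under 1 in all 4 libraries. Endometrial markers, 11 in the list, summed to 50.8 and 54.2 with DMSO and 40.1 and 41.3 with genistein, with SOX17 and HOXA13 at 0 throughout. Of these 11, 10 were under 1 in all 4 libraries, so the sum rests almost wholly on the remaining gene. The 11 basal markers summed to 106 to 128.

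Genistein raised 108 genes in T-47D cells, 0.781% of the genes tested, and lowered 3, which is 0.0217%. A further view of the size of the response is the 801 of 13827 genes with an unadjusted p under 0.05, in either direction. Counts at that p within gene lists below are to be read beside this one. In each of the 108 rises both genistein libraries lay above both DMSO libraries, and in each of the 3 falls both lay below. The calls were chosen on these same values and the share over all genes was not counted, so this separation is a description. Of the rises, 64 were at least 1 on the log2 scale, 18 at least 1.5, and the smallest was 0.61. Only changes large beside their standard error could pass the threshold, so these sizes are partly set by it. DMSO means of the 108 rises ran from 0.084 to 369.7 scaled RPKM with a median of 3.64, and 24 were under 1. The share of all tested genes under 1 with DMSO was not counted, so the 24 are a description. The median change over all genes was -0.00372.

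Without the estradiol libraries the fit raised 209 genes (1.51%) and lowered 55 (0.398%), and these include all 108 rises and all 3 falls. Limma on the 4 libraries alone called 0 genes, with 1107 at an unadjusted p under 0.05, and on the 8 T-47D libraries it called 13, all raised: ADRA2A, CADM1, CXCL12, FMN1, KCNK5, KRT13, MYC, NKAIN1, NXPH3, RASGRP1, SEMA6A, TEX14 and THBS1. Leaving out 1 library gave 99 calls without genistein replicate 1, 46 without genistein replicate 2, 67 without DMSO replicate 1 and 53 without DMSO replicate 2. Of the 111 calls, 39 held in all 4 of these fits.

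**Figure D1:**
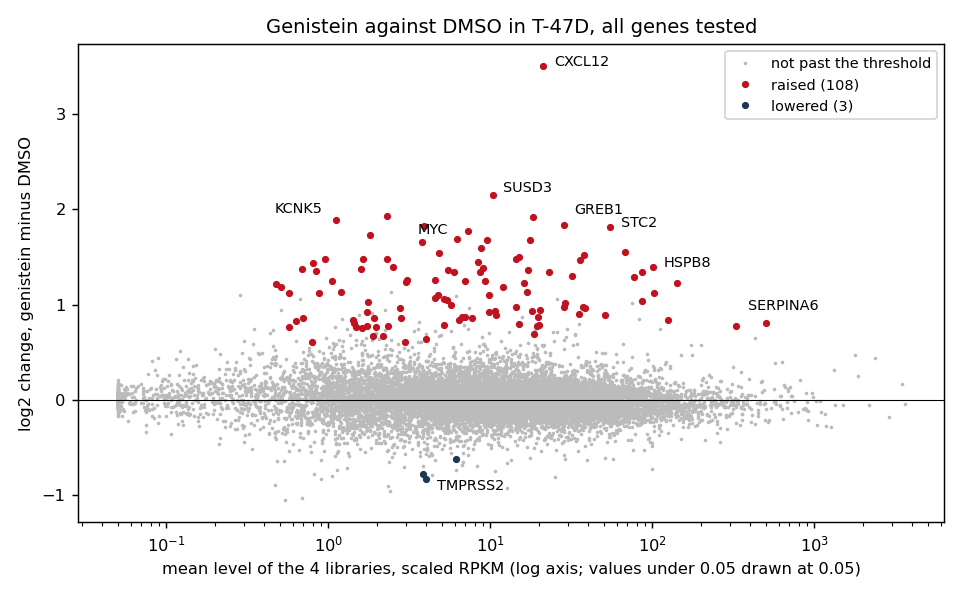
Log2 change, genistein minus DMSO, on the vertical axis against the mean level of the 4 T-47D libraries in scaled RPKM on a log axis, 1 point per gene tested. The 108 raised genes in red lie between 0.61 and 3.51, the highest being CXCL12, and the 3 lowered genes in blue between -0.84 and -0.63; grey points of genes not past the threshold reach into both ranges.

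The promoters of raised genes bear on where a ligand-bound receptor could meet them, so the matches to its element are shown before the levels. RefSeq promoters of GRCh38.p14, 250 bases before to 50 after the gene start, were at hand for 80 of the 108 raised genes and 10857 of the 13827 tested. The full element (GGTCA, any 3 bases, TGACC, both strands) was in 0 of the 80 promoters and in 0.00921% of all promoters. With at most 1 mismatch in its 10 fixed letters it was in 1 of the 80 (1.25%), that of ADAMTSL5, and in 0.451% of all promoters. The ADAMTSL5 element is shown in capitals with its flanks, on the gene's strand, at chr19:1513188-1513269 (minus strand). It starts 221 bases before the gene start and carries T9G, counted from 1 at the element's 5′ end with the base of the full element first.
ADAMTSL5: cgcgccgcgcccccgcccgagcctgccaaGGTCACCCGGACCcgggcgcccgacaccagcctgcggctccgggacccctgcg

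The single arm GGTCA, which every full element contains, was in 32 of the 80 promoters (40%) and in 34.3% of all promoters, so its share among the raised genes was close to the share among all. Windows around the arm, in capitals, are shown for 3 of the 5 largest rises, which held a match in the promoters at hand. The arm was sought on both strands and reads TGACC where it lies on the opposite strand, as for CYP2S1 and KCNK5. They lie at chr10:44385271-44385335 (minus strand) for CXCL12, chr19:41193008-41193072 (plus strand) for CYP2S1 and chr6:39229629-39229693 (minus strand) for KCNK5, and the capitals begin at positions -208, -181 and -188 from the gene start.
CXCL12: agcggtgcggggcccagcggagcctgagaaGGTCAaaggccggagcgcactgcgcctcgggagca
CYP2S1: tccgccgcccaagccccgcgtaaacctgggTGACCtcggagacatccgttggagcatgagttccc
KCNK5: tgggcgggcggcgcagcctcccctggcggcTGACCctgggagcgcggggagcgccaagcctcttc

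Other motifs were as frequent or nearly so among raised and all genes: the E-box CACGTG in 13.8% and 10.3%, the AP-1 motif TGANTCA in 5% and 4.31%, and the GC box GGGCGG in 67.5% and 69.5%. These matches describe letters in short windows near the start and are no evidence of binding.

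Secreted signals and their receptors held the largest rise. CXCL12, a chemokine that guides cells through its receptor CXCR4, had levels of 3.85 and 2.26 with DMSO and 37.4 and 40.8 with genistein. The groups were far apart, and the log2 change was 3.51 ± 0.22 (SE, n = 2 against 2), an 11.4-fold rise with an adjusted p of 1.28e-06. Among the 10 chemokine and chemokine receptor genes tested, CXCL12 was the single member called (10%, beside 0.781% raised of all genes). CXCR7, which takes up CXCL12 without classical G-protein signalling, went the other way, from 1.53 and 1.55 to 0.915 and 0.549. Its change of -0.74 had an adjusted p of 0.0757, and it was lowered in the fit without estradiol (adjusted p = 0.0197).

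STC2, a secreted glycoprotein of calcium and stress biology, went from 28.5 and 20.1 to 77.6 and 94.1 (log2 change 1.82, adjusted p = 0.000199). OLFM1, a secreted olfactomedin protein, went from 8.4 and 6.34 to 30 and 28.1 (1.92, adjusted p = 0.000199). Both genes showed genistein levels more than 2-fold above either DMSO library. NPY1R, a receptor for neuropeptide Y that is common in luminal breast tumours, rose from 1.82 and 1.29 to 4.75 and 7.32 (1.65, adjusted p = 0.000834), with the genistein libraries well apart from each other. FLT4, the receptor for the lymphatic growth factor VEGF-C, rose from 1.05 and 0.89 to 3.28 and 3.94 (1.48, adjusted p = 0.00076). SEMA6A, a transmembrane semaphorin, rose from 2.84 and 2.88 to 7.93 and 8.34 (1.36, adjusted p = 0.000172), and its 2 replicates were close in both groups. ADRA2A, an alpha-2 adrenergic receptor, was nearly silent with DMSO at 0.123 and 0.0451 and reached 0.85 and 0.866 (1.22, adjusted p = 0.000216).

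THBS1, the matrix protein thrombospondin, rose from 32.4 and 35.7 to 91 and 111 (1.55, adjusted p = 0.00584). Its call ended without genistein replicate 2 (1.41, adjusted p = 0.11), DMSO replicate 1 (1.48, adjusted p = 0.0833) or DMSO replicate 2 (1.62, adjusted p = 0.0518). The G protein-coupled receptor gene GPR132 went from 7.03 and 8.12 to 20.6 and 24 (1.50, adjusted p = 0.0143), and its call ended without any one of the 4 libraries, at adjusted p 0.0523 to 0.19. GPR77, a receptor for complement fragment C5a, went from 7.77 and 6.95 to 19.4 and 23.5 (1.47, adjusted p = 0.00299). Without genistein replicate 2 (1.34, adjusted p = 0.0651) or DMSO replicate 2 (1.40, adjusted p = 0.0518) it was no longer called. In all 3 genes both genistein libraries lay above both DMSO libraries.

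**Figure D2:**
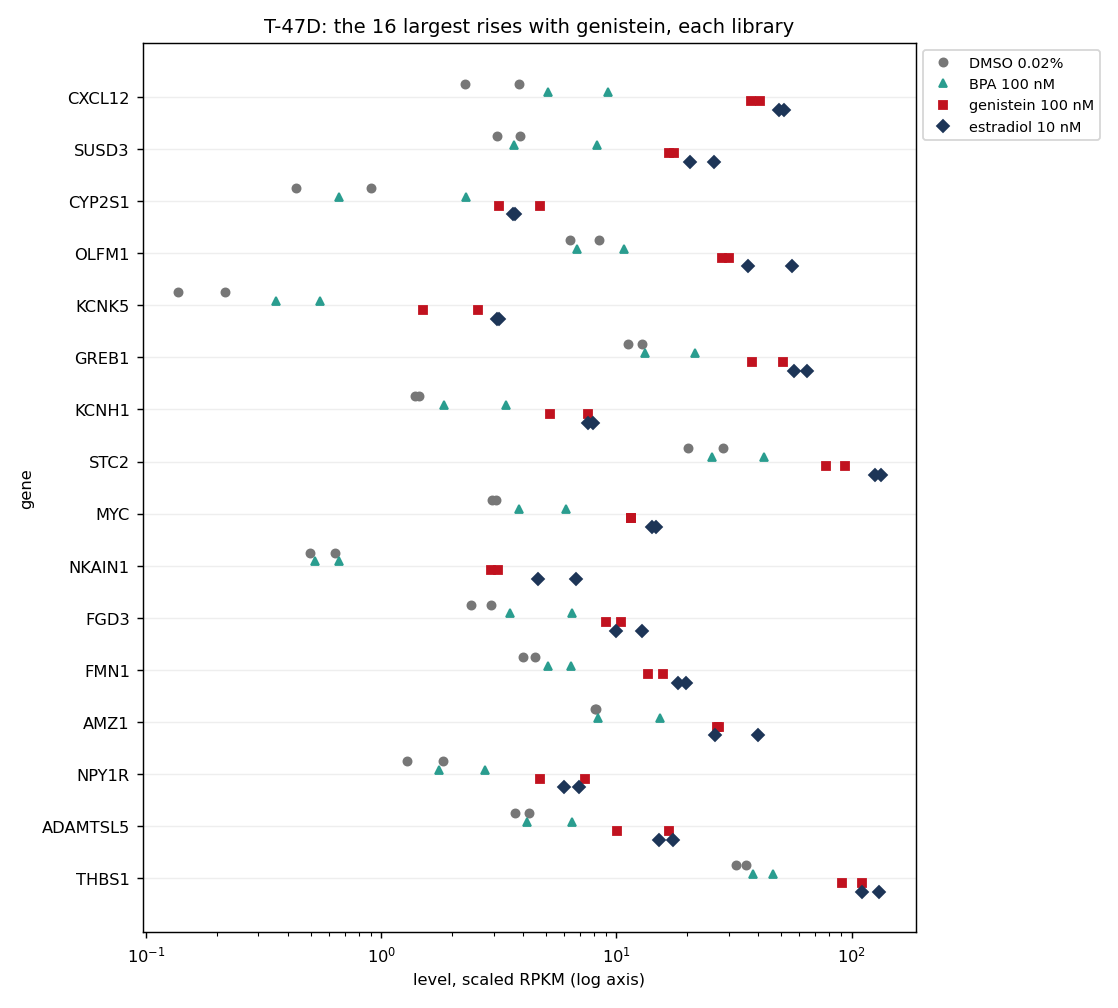
Level of the 16 largest rises in each T-47D library, in scaled RPKM on a log axis, with DMSO in grey, BPA in green, genistein in red and estradiol in blue. Genistein libraries lie to the right of the DMSO libraries in every gene shown, and for CXCL12 they lie at 37.4 and 40.8 against 3.85 and 2.26.

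Of the 18 potassium channel genes tested, 3 were raised (16.7%, beside 0.781% of all genes) and 1 was lowered (beside 0.0217% of all genes). The median change was 0.04, with 10 estimates above 0 and 8 below. KCNK5, a background potassium channel, went from 0.136 and 0.216 to 1.51 and 2.58 (log2 change 1.88, adjusted p = 9.49e-05). KCNH1, the voltage-gated channel EAG1, rose from 1.39 and 1.44 to 5.21 and 7.6 (1.83, adjusted p = 0.000199). KCNF1, a silent subunit that modifies other channels, went from 1.75 and 1.45 to 4.17 and 4.69 (1.23, adjusted p = 0.00831), and its call ended without genistein replicate 2 (1.16, adjusted p = 0.125) or DMSO replicate 2 (1.13, adjusted p = 0.135). All 3 were above DMSO in both genistein libraries. KCNC1, a fast voltage-gated channel, was the lowered member and is described with the falls. CACNA1H, a T-type calcium channel, rose from 2.01 and 2.41 to 6.38 and 8.57 (1.55, adjusted p = 0.000403), and NKAIN1, which interacts with the sodium pump, rose from 0.496 and 0.634 to 2.92 and 3.12 (1.73, adjusted p = 9.49e-05). GRIK3, a kainate-type glutamate receptor subunit, rose from 2.26 and 2.7 to 6.05 and 7.17 (1.26, adjusted p = 0.00139).

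Genes known to be induced by estrogen in breast cancer cells were next. Of 62 tested, 26 were raised (41.9%, beside 0.781% of all genes), 0 were lowered and 36 did not pass, with a median change of 0.61 beside 0.00 over all genes. Estimates were above 0 in 58 and below in 4. In the fit without estradiol 34 of the 62 were raised (beside 1.51% of all genes), the further members being XBP1, NRIP1, TPD52L1, SLC7A5, RBBP8, FHL2, SLC9A3R1 and UGCG. The list was drawn up with earlier results of these data known, so its count is a description. Its raised members CXCL12, MYC, PGR, RARA, GREB1, CA12, KCNK5, HSPB8 and FKBP4 also sit in other lists described here. The counts of those lists are therefore not separate findings.

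GREB1, a receptor cofactor and one of the most regular estrogen targets, rose from 11.2 and 12.8 to 37.8 and 51.1 (log2 change 1.84, adjusted p = 0.000307). SUSD3, a membrane protein with a sushi domain, rose from 3.87 and 3.11 to 16.7 and 17.5 (2.15, adjusted p = 0.000493), the largest rise after CXCL12. MYC, the growth-promoting transcription factor, rose from 3.07 and 2.95 to 11.5 and 11.5 (1.77, adjusted p = 7.35e-05). In each the lower genistein library stood well above the higher DMSO library. SGK3, a kinase of the phosphoinositide pathway, rose from 4.52 and 3.38 to 9.78 and 10.2 (1.25, adjusted p = 0.000492). The ubiquitin ligase SIAH2 went from 24.6 and 24.4 to 43.6 and 49.1 (0.90, adjusted p = 0.00111), with DMSO replicates nearly equal. B4GALT1, a galactosyltransferase of the Golgi, went from 45.6 and 42.4 to 93.2 and 126 (1.29, adjusted p = 0.000491). ELOVL2, which lengthens polyunsaturated fatty acids, went from 1.31 and 1 to 3.46 and 4.24 (1.39, adjusted p = 0.000326), and KRT13, a keratin of stratified epithelia, from 0.58 and 0.681 to 2.58 and 2.74 (1.48, adjusted p = 0.000169).

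Some textbook targets rose with less stable calls. PGR, the progesterone receptor, went from 58.4 and 68.5 to 117 and 165 (1.13, adjusted p = 0.00503), and was not called without genistein replicate 2 (0.88, adjusted p = 0.135) or DMSO replicate 1 (1.01, adjusted p = 0.0944). TFF1, the secreted trefoil peptide pS2, was barely detected, at 0.392 and 0 with DMSO and 2 and 0.8 with genistein (1.43, adjusted p = 0.0382), and it was not called without genistein replicate 1 (0.96, adjusted p = 0.357) or DMSO replicate 2 (1.02, adjusted p = 0.592). PDZK1, a scaffold protein that shares sequence with a pseudogene and whose counting is therefore uncertain, went from 2.15 and 1.59 to 3.72 and 3.81 (0.86, adjusted p = 0.0143). Its call ended without genistein replicate 1 (0.87, adjusted p = 0.083), genistein replicate 2 (0.84, adjusted p = 0.151) or DMSO replicate 2 (0.69, adjusted p = 0.282). IGFBP4, which binds insulin-like growth factors, went from 88 and 90.3 to 156 and 163 (0.83, adjusted p = 0.00456), and was not called without genistein replicate 2 (0.81, adjusted p = 0.0906), DMSO replicate 1 (0.82, adjusted p = 0.0641) or DMSO replicate 2 (0.85, adjusted p = 0.053). The direction was up in each of these fits.

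In a panel of 10 estrogen-responsive genes, chosen with earlier results of these data known, 7 were raised (beside 0.781% of all genes): GREB1, TFF1, PGR, PDZK1, CXCL12, MYC and IGFBP4. CCND1, the G1 cyclin D1, went from 35.7 and 29.5 to 44.9 and 38, a change of 0.34 with a 95% interval of 0.01 to 0.68 and an adjusted p of 0.821. ESR1 itself went from 28.1 and 34.7 to 36.5 and 44.9 (0.37, interval -0.01 to 0.74, adjusted p = 0.884). CYP1A1, the classical target of the aryl hydrocarbon receptor, had overlapping groups, 4.91 and 6.24 against 7.06 and 4.18 (-0.02, interval -0.94 to 0.90). The list of aryl hydrocarbon receptor targets is short and also holds AHR and ARNT themselves. Among its 8 members tested, limma called 0, with 0 at an unadjusted p under 0.05, and the median was -0.03.

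Transcription factors and receptor genes are described next. RUNX1, a runt-domain factor of mammary and blood cells, rose from 3.92 and 4.58 to 11.6 and 13.3 (1.45, adjusted p = 0.000173). MYB, a regulator of proliferation, went from 3.7 and 2.64 to 8.88 and 8.58 (1.35, adjusted p = 0.00831), and its relative MYBL1 from 11.9 and 13.3 to 26.7 and 40.1 (1.34, adjusted p = 0.0128). The MYB call ended without genistein replicate 1 (1.32, adjusted p = 0.0634), genistein replicate 2 (1.37, adjusted p = 0.0898) or DMSO replicate 2 (1.14, adjusted p = 0.175). The MYBL1 call ended without genistein replicate 2 (1.05, adjusted p = 0.246), DMSO replicate 1 (1.26, adjusted p = 0.144) or DMSO replicate 2 (1.42, adjusted p = 0.0863). Of 14 steroid and related receptor genes tested, PGR and RARA were raised (14.3%, beside 0.781% of all genes) and 0 lowered, with a median of -0.04. RARA, a retinoic acid receptor, went from 25.3 and 26 to 48.9 and 52 (0.96, adjusted p = 0.00719), and was not called without genistein replicate 2 (0.92, adjusted p = 0.111), DMSO replicate 1 (0.94, adjusted p = 0.0856) or DMSO replicate 2 (0.98, adjusted p = 0.0742). GREB1 was the single raised member of 24 nuclear receptor cofactors (4.17%, beside 0.781% of all genes), whose median was 0.07, and NRIP1, a corepressor, joined it in the fit without estradiol.

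Of 18 heat shock and chaperone genes, 2 were raised (11.1%, beside 0.781% of all genes) and 0 lowered, with a median of 0.13. HSPB8, a small heat shock protein of autophagy, rose from 54.5 and 55.6 to 128 and 164 (1.39, adjusted p = 0.000344). FKBP4, the cochaperone FKBP52 of steroid receptors, rose from 81.8 and 88 to 177 and 224 (1.23, adjusted p = 0.00122). In both the lower genistein library was about 2-fold above the higher DMSO library. Both genes are also members of the estrogen-induced list. Raised genes of enzymes, carriers and surface proteins follow. PTGES, which makes prostaglandin E2, rose from 7.92 and 6.28 to 17.9 and 15.5 (1.18, adjusted p = 0.00164). SFXN2, a mitochondrial carrier, rose from 17.4 and 20.8 to 45.8 and 67.9 (1.52, adjusted p = 0.000253). CADM1, a cell adhesion molecule, rose from 19.9 and 17.7 to 48.4 and 57.3 (1.46, adjusted p = 0.000117), and SULF1, which trims heparan sulfate, from 4.7 and 4.4 to 9.71 and 15.5 (1.34, adjusted p = 0.00186). ADAMTSL5, whose near-match element is shown above, rose from 3.71 and 4.26 to 10.1 and 16.8 (1.60, adjusted p = 0.00188), and MICB, a ligand of the immune receptor NKG2D, from 19.5 and 18.4 to 35.5 and 42.2 (1.01, adjusted p = 0.00133). Replicates of SULF1 and ADAMTSL5 differed more with genistein than with DMSO.

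CYP2S1, an inducible cytochrome P450, went from 0.435 and 0.903 to 3.18 and 4.72 (1.94, adjusted p = 0.00433), and its call ended without genistein replicate 2 (1.68, adjusted p = 0.0981) or DMSO replicate 1 (1.64, adjusted p = 0.088). CA12, a membrane carbonic anhydrase, was the raised member of 26 glycolysis and hypoxia-responsive genes (3.85%, beside 0.781% of all genes, median 0.14), from 58 and 54 to 104 and 128 (1.04, adjusted p = 0.00384). It was not called without genistein replicate 2 (0.89, adjusted p = 0.0986) or DMSO replicate 2 (0.99, adjusted p = 0.0671). The most abundant raised genes had smaller changes. SERPINA6, which carries glucocorticoids, went from 425 and 315 to 632 and 651 (0.81, adjusted p = 0.0369), and the lysosomal protease gene CTSD from 242 and 238 to 398 and 425 (0.78, adjusted p = 0.024). The CTSD call ended without any one of the 4 libraries (0.73 to 0.82, adjusted p 0.0925 to 0.256). For SERPINA6 it ended without genistein replicate 1 (0.83, adjusted p = 0.151), genistein replicate 2 (0.79, adjusted p = 0.291) or DMSO replicate 2 (0.59, adjusted p = 0.6).

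Further rises among the 30 largest that held without each library came from varied families. FMN1, an actin nucleator, rose from 4.49 and 4 to 13.6 and 15.8 (1.68, adjusted p = 0.000357), and FGD3 from 2.94 and 2.41 to 9 and 10.5 (1.69, adjusted p = 0.000632). AMZ1, a metallopeptidase, rose from 8.09 and 8.15 to 26.9 and 27.3 (1.68, adjusted p = 0.00111), with replicates almost equal in both groups. TEX14, a protein of germ cell bridges, rose from 0.215 and 0.315 to 1.47 and 1.82 (1.48, adjusted p = 0.000344), NXPH3, a neurexophilin, from 0.165 and 0.158 to 1.18 and 1.24 (1.37, adjusted p = 0.000186), and KCTD6, a ubiquitin ligase adaptor, from 5.27 and 4.22 to 12.5 and 13.8 (1.38, adjusted p = 0.00184). None of these genes had overlapping groups. DSCAM, a neural adhesion molecule, went from 0.802 and 0.995 to 1.7 and 2.22 (0.81, adjusted p = 0.0128). These libraries keep no strand, so reads of DSCAM and of its antisense RNA cannot be told apart. Its call ended without genistein replicate 2 (0.65, adjusted p = 0.245), DMSO replicate 1 (0.71, adjusted p = 0.184) or DMSO replicate 2 (0.91, adjusted p = 0.0518).

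Growth factor and cytokine signalling genes gave few calls. MYC was the raised member of 22 immediate early genes (4.55%, beside 0.781% of all genes), whose median was 0.05. Of 18 ERK and receptor tyrosine kinase feedback genes, PHLDA1 and TGFA were raised (11.1%, beside 0.781% of all genes), with a median of 0.06. PHLDA1 went from 4.79 and 4.09 to 8.21 and 8.43 (0.84, adjusted p = 0.00721), and the EGF receptor ligand gene TGFA from 3.03 and 2.99 to 4.76 and 5.13 (0.63, adjusted p = 0.0181). Without genistein replicate 2 (0.82, adjusted p = 0.104) or DMSO replicate 2 (0.74, adjusted p = 0.146) PHLDA1 was not called, and TGFA was not called without any one of the 4 libraries (0.58 to 0.68, adjusted p 0.0725 to 0.246). CISH, an inhibitor of cytokine receptors, was the raised member of 15 cytokine feedback genes (6.67%, beside 0.781% of all genes, median -0.02), from 7.15 and 7.26 to 14 and 14.4 (0.93, adjusted p = 0.0297). Its call ended without any one of the 4 libraries (0.91 to 0.95, adjusted p 0.138 to 0.245), although the groups were far apart relative to their replicates.

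**Figure D3:**
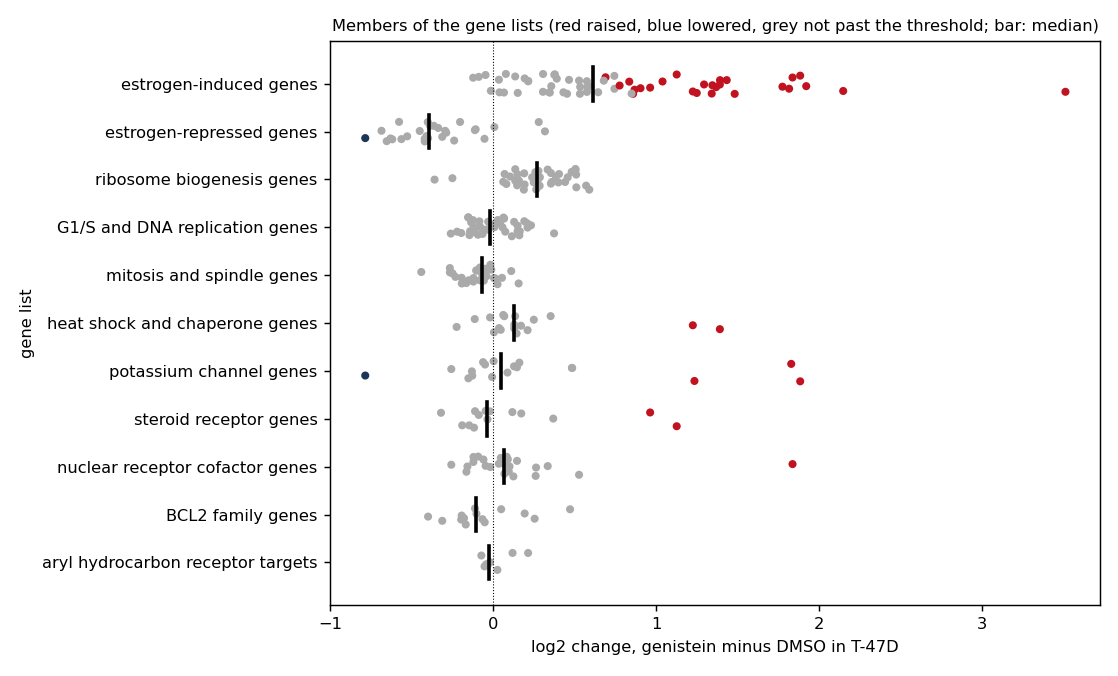
Log2 change, genistein minus DMSO in T-47D, of the tested members of 11 gene lists, 1 point per gene, with the median as a bar, raised genes in red and lowered genes in blue. The estrogen-induced list has a median of 0.61 and the estrogen-repressed list one of -0.39, while the other medians shown lie between -0.11 and 0.27.

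Falls were fewer and smaller than rises. TMPRSS2, a serine protease known as an androgen receptor target, went from 5.35 and 5.17 to 2.91 and 2.55 (log2 change -0.84 ± 0.15, SE, n = 2 against 2, adjusted p = 0.0128), a 1.79-fold fall. KCNC1 went from 4.68 and 5.26 to 2.58 and 2.76 (-0.79, adjusted p = 0.0396), and SH2D4A, an adaptor with an SH2 domain, from 7.5 and 7.6 to 5.35 and 4.15 (-0.63, adjusted p = 0.0363). Replicates were close in all but the genistein pair of SH2D4A. The TMPRSS2 call ended without genistein replicate 2 (-0.75, adjusted p = 0.202), DMSO replicate 1 (-0.81, adjusted p = 0.128) or DMSO replicate 2 (-0.86, adjusted p = 0.106). That of SH2D4A ended without genistein replicate 2 (-0.46, adjusted p = 0.548), DMSO replicate 1 (-0.63, adjusted p = 0.219) or DMSO replicate 2 (-0.62, adjusted p = 0.282). KCNC1 was not called without any one of the 4 libraries (-0.71 to -0.86, adjusted p 0.143 to 0.402).

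In the fit without estradiol, both genistein libraries lay below both DMSO libraries in all 55 lowered genes, none fell over 2-fold, and the largest fall was -0.96. That separation, too, is a description of genes chosen on the same values. The genes named next were chosen after their values were seen. C2orf54 had that largest fall, from 3.88 and 2.76 to 1.69 and 1.22 (adjusted p = 0.00898 without estradiol and 0.0571 in the 16-library fit). TSC22D3, the glucocorticoid-induced leucine zipper GILZ, fell from 18.5 and 14.6 to 11.1 and 6.32 (-0.93, adjusted p = 0.0309 without estradiol and 0.0869 with it). BAMBI, a decoy receptor for TGF-beta family ligands, fell from 122 and 123 to 92.2 and 59.3 (-0.73, adjusted p = 0.0327 without estradiol and 0.0689 with it). The genistein replicates of TSC22D3 and BAMBI differed widely, and both lay below DMSO. SOX2, a stem cell transcription factor, fell from 4.23 and 4.86 to 3.13 and 2.56 (-0.59, adjusted p = 0.0438 without estradiol and 0.126 with it). TXNRD1, thioredoxin reductase, was the lowered member of 16 NRF2 targets in that fit (beside 0.398% of all genes). It fell from 105 and 129 to 78 and 87.8 (-0.49, adjusted p = 0.0231 without estradiol and 0.216 with it).

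Genes known to fall with estrogen mostly had estimates below 0. Their list too was chosen with earlier results of these data known, so its counts are a description. Of 28 tested, KCNC1 was lowered (beside 0.0217% of all genes) and 0 were raised. Estimates were below 0 in 25 and above in 3, beside 7081 below and 6697 above over all genes. The median was -0.39. In the fit without estradiol 6 were lowered (beside 0.398% of all genes): EFNB2, HES1, TGFB3, PCDH7, S1PR3 and KCNC1. EFNB2, the ligand ephrin-B2, fell from 8.13 and 8.62 to 4.57 and 5.5 (-0.69, adjusted p = 0.0214 without estradiol and 0.0821 with it). The protocadherin gene PCDH7 fell from 3.29 and 2.73 to 1.82 and 1.64 (-0.65, adjusted p = 0.016 and 0.0571), and S1PR3, a receptor for sphingosine 1-phosphate, from 7.98 and 6.82 to 4.86 and 4.33 (-0.63, adjusted p = 0.0249 and 0.126). Both genistein libraries of each lay below both DMSO libraries. HES1, a repressor downstream of Notch, fell from 31.1 and 32.6 to 24.9 and 21.5 (-0.45, adjusted p = 0.0134 and 0.128), and TGFB3, a TGF-beta ligand, from 78.4 and 83.7 to 61.5 and 59.3 (-0.42, adjusted p = 0.0262 and 0.185). IL1R1, the interleukin 1 receptor, had levels of 32.9 and 35.4 against 21.6 and 23.9 and passed in neither fit (-0.58, adjusted p = 0.0876 without estradiol and 0.253 with it).

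**Figure D4:**
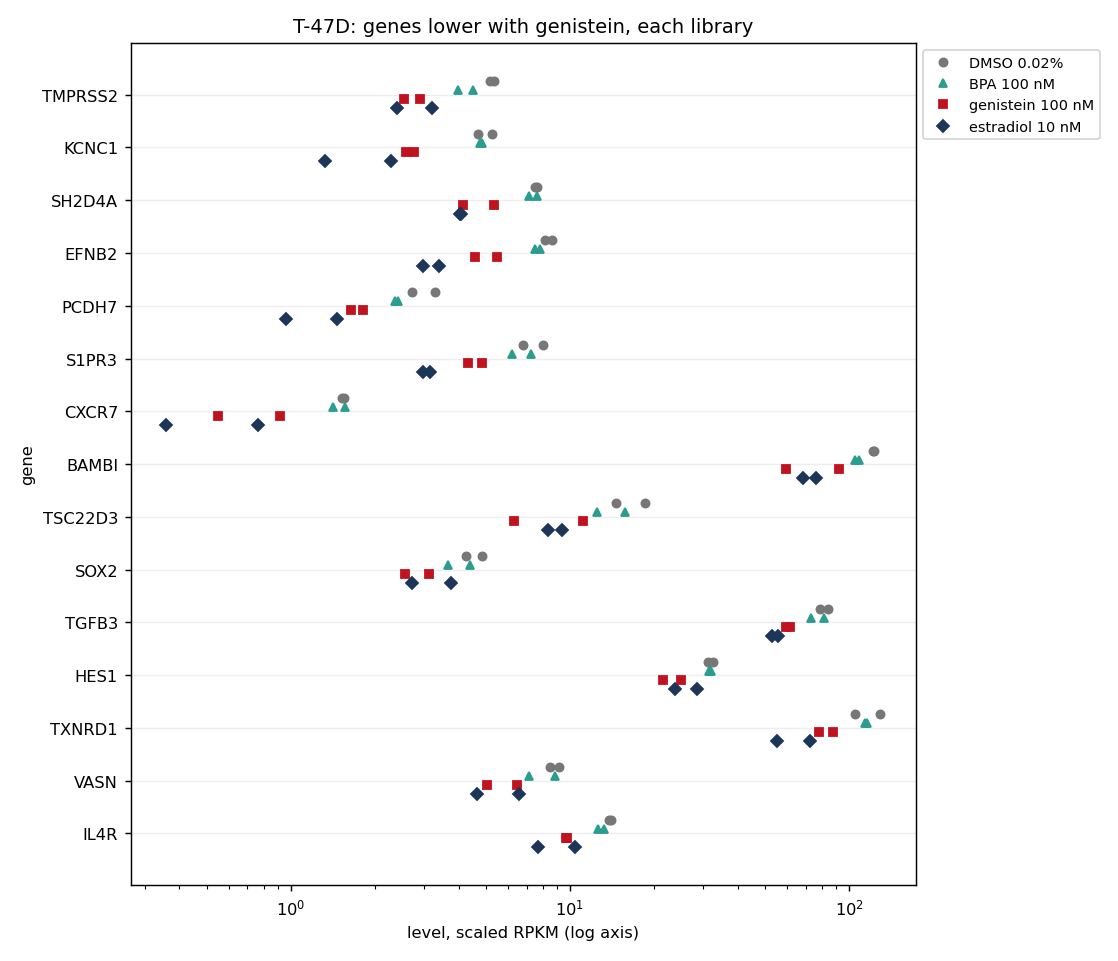
Level of 15 genes that were lower with genistein, in each T-47D library, in scaled RPKM on a log axis with the same colours as for the rises. TMPRSS2, KCNC1 and SH2D4A were called in the 16-library fit, and the others were called in the fit without estradiol. For TMPRSS2 the genistein libraries lie at 2.91 and 2.55 and the DMSO libraries at 5.35 and 5.17.

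Ribosome biogenesis genes lay slightly above 0 as a group, with 38 of 40 estimates above 0, but limma called 0 of them. Their median was 0.27, beside 0.33 for the same list in ECC-1. At an unadjusted p under 0.05, 18 were higher and 0 lower, beside 801 of all 13827 genes in either direction. In the fit without estradiol 10 of the 40 were raised (beside 1.51% of all genes). RRS1, an assembly factor of the large subunit, went from 7.77 and 6.72 to 11.3 and 11 (0.59, adjusted p = 0.00256 without estradiol and 0.466 with it), and BOP1, of the same pathway, from 16.8 and 16.6 to 24.4 and 25.6 (0.57, adjusted p = 0.00256 and 0.504). The helicase gene DDX21 went from 51.6 and 47.5 to 66.1 and 72.6 (0.48, adjusted p = 0.00888 and 0.0712), and NOP56, a box C/D snoRNP protein, from 39.6 and 34.8 to 52.8 and 52.9 (0.50, adjusted p = 0.0108 and 0.0918). These 4 genes had higher levels in both genistein libraries. NPM1, the most abundant member, had overlapping groups, 503 and 439.6 against 522 and 489 (0.10, interval -0.26 to 0.47). NCL went from 106 and 101 to 126 and 148 (0.40, interval 0.08 to 0.72, adjusted p = 0.512). Of 20 aminoacyl-tRNA synthetase genes 0 were called, with 4 higher at an unadjusted p under 0.05 and a median of 0.12, and VARS was raised in the fit without estradiol.

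Cell cycle genes gave no calls at 8 h. Limma called 0 of 40 G1/S and replication genes (median -0.02, 1 higher and 0 lower at an unadjusted p under 0.05). It called 0 of 31 mitosis genes (median -0.07, 0 higher and 1 lower), of which 25 had estimates below 0, and 0 of 16 G1 cyclins, kinases and inhibitors (median -0.02, 1 higher and 0 lower). The fit without estradiol called none of these members either.

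Other pathways were also quiet by this test. Limma called 0 of 15 PPAR and fatty acid oxidation genes (median -0.09), 0 of 22 sterol and fatty acid synthesis genes (0.01), 0 of 18 interferon-induced genes (-0.02) and 0 of 14 BCL2 family genes (-0.11), with 1, 0, 2 and 1 higher and 0 lower in each at an unadjusted p under 0.05. It called 0 of 16 NRF2 targets (median -0.03, 0 higher and 1 lower), 0 of 22 unfolded protein and amino acid stress genes (0.02, 1 higher and 1 lower) and 0 of 17 amino acid transporters (0.07, 2 higher and 0 lower). Without estradiol TXNRD1, XBP1 and the transporters SLC7A5 and SLC7A1 passed in these 3 lists (beside 1.51% of all genes raised and 0.398% lowered). Of 13 targets of the glucocorticoid, progesterone and androgen receptors TMPRSS2 was lowered (beside 0.0217% of all genes) and 0 were raised (median -0.08). TSC22D3 joined TMPRSS2 in the fit without estradiol (beside 0.398% of all genes).

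Markers of cell identity were not called. Of 16 luminal markers tested 0 passed (median 0.01, 3 higher and 1 lower at an unadjusted p under 0.05), while the summed level of the 17 listed was 7032 and 6983 with DMSO and 8514 and 9039 with genistein. KRT8 went from 1973 and 2005 to 2380.4 and 3043 (0.44, adjusted p = 0.763) and KRT19 from 1493 and 1484 to 2084 and 2037 (0.47, adjusted p = 0.537), and XBP1 passed in the fit without estradiol. In bulk RNA a change in the makeup of the cells and a change in RNA per cell cannot be told apart. Limma called 0 of 10 basal markers (median -0.03, none at an unadjusted p under 0.05), 0 of 10 endometrial markers (0.00, 1 lower), 0 of 3 fibroblast markers (-0.19, 1 lower), 0 of 2 leukocyte markers (0.17, none) and 0 of 1 endothelial marker (0.10, none).

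BPA was given at the same dose and time as genistein, so that pair could be compared directly, and it was the only pair of compounds at matched dose. Genistein is an isoflavone with a fused ring system and BPA has separate phenol rings joined through a carbon. Genistein was higher than BPA in 53 genes (0.383% of those tested) and lower in 3 (0.0217%), and 52 of the 108 rises were higher with genistein than with BPA. The count of 52 is a description only, since the 108 genes were chosen for high values in the same genistein libraries. The largest difference was in CXCL12, with BPA levels of 5.13 and 9.2 beside 37.4 and 40.8 with genistein, a log2 difference of 2.42 with a 95% interval of 1.95 to 2.89 (adjusted p = 0.000216). OLFM1 was at 6.82 and 10.8 with BPA and 30 and 28.1 with genistein (1.70, interval 1.25 to 2.15, adjusted p = 0.00227). NKAIN1 was at 0.521 and 0.661 with BPA, about its DMSO level, and 2.92 and 3.12 with genistein (1.69, interval 1.34 to 2.04, adjusted p = 0.00025). MYC was at 3.86 and 6.11 with BPA and at 11.5 in both genistein libraries (1.16, interval 0.83 to 1.50, adjusted p = 0.00328). In CXCL12, OLFM1 and MYC the second BPA library was the higher one.

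Some rises did not pass against BPA. PGR was at 74.9 and 85.2 with BPA, a difference of 0.79 with an interval of 0.40 to 1.18 and an adjusted p of 0.114, and PDZK1 was at 2.32 and 2.78 (0.49, interval 0.15 to 0.83, adjusted p = 0.52). These estimates do not show that the compounds act alike on either gene. The 3 genes lower with genistein were GAGE12F, GAGE7 and GAGE12I, cancer-testis antigens with near-identical sequences whose counts are uncertain. GAGE12F was at 2.26 and 1.9 with BPA and 0.431 and 0.82 with genistein (-1.21, adjusted p = 0.00733). The number of calls fell from 56 to 45 without genistein replicate 1 and to 10 without genistein replicate 2, it was 103 in the fit without estradiol, and it was 0 in the fit of the 8 T-47D libraries alone, with 477 genes at an unadjusted p under 0.05.

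Estradiol was given at 10 nM, a different dose, so its values are set beside those of genistein without a comparison of the compounds. CXCL12 was at 51.6 and 49.3 with 10 nM estradiol and 37.4 and 40.8 with 100 nM genistein, SUSD3 at 25.9 and 20.6 beside 16.7 and 17.5, and GREB1 at 64.5 and 57.2 beside 37.8 and 51.1. PGR was at 113 and 163 with estradiol and 117 and 165 with genistein, and TEX14 at 1.42 and 1.34 beside 1.47 and 1.82. Both orders of levels thus occurred. TFF1 was at 4.4 and 3.97 beside 2 and 0.8, and PDZK1 at 6.57 and 7.1 beside 3.72 and 3.81. TMPRSS2 was at 2.4 and 3.2 with estradiol and 2.91 and 2.55 with genistein, so the groups overlapped, while EFNB2 was at 2.99 and 3.4 beside 4.57 and 5.5.

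Between these groups of unequal dose, limma called 1 gene (0.00723%), CITED1, a coactivator, with 1004 genes at an unadjusted p under 0.05. CITED1 was at 2.13 and 1.7 with estradiol, 0.429 and 0.35 with genistein and 0.288 and 0.141 with DMSO, a difference of -1.44 between genistein and estradiol. It was not called without genistein replicate 2, where limma called 0 genes. Of the 108 rises 0 passed, with 38 lower and 0 higher with genistein at an unadjusted p under 0.05. Their median difference was -0.27, with 93 estimates below 0 and 15 above. These counts are descriptions too, since the 108 genes were chosen on the same genistein libraries.

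ECC-1 cells received the same dose of genistein with DMSO libraries of their own. There genistein raised 112 genes (0.81%) and lowered 22 (0.159%), and 12 of those raised were also raised in T-47D: CA12, CISH, IGFBP4, KCNF1, MYC, PGR, PPM1J, RASGRP1, RBM24, SIAH2, TGFA and THBS1. The shared genes are 11.1% of the T-47D rises and 10.7% of the ECC-1 rises, and 0 genes were called in opposite directions. Of the 108 T-47D rises, 53 had means under 1 scaled RPKM in both ECC-1 groups. The share of all tested genes at such ECC-1 levels was not counted, so the 53 are a description.

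The responses were tested for a difference between the lines with an interaction term. The T-47D response was above the ECC-1 response in 33 genes (0.239%) and below it in 48 (0.347%), and in the fit without estradiol in 68 (0.492%) and 77 (0.557%). Of the 108 T-47D rises 31 were larger in T-47D and 1, TGFA, was smaller. This count is a description only, since the genes were chosen for their rise in T-47D and a gene near 0 in ECC-1 can only show the T-47D change. CXCL12 was at 0 in all 4 ECC-1 libraries, and OLFM1 was at 0 with DMSO and at 0.0146 and 0.0166 with genistein. KCNK5 was expressed in ECC-1, at 5.21 and 6.15 with DMSO and 6.37 and 6.42 with genistein, and its responses differed by 1.72 (adjusted p = 0.00259). MYC was at 19 and 22.4 against 37.2 and 34.5 in ECC-1 (0.78, adjusted p = 0.0229), and a difference between lines of 0.99 did not pass (adjusted p = 0.0688). THBS1 had nearly the same change in both lines, 1.55 and 1.57.

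Some responses were larger in ECC-1. TGFA was at 35.1 and 34.4 with DMSO and 129 and 127 with genistein in ECC-1, a change of 1.86 where T-47D gave 0.63, and the difference was -1.23 (adjusted p = 0.00201). DHRS3, a retinaldehyde reductase, went from 0.75 and 1.42 to 17.2 and 26 in ECC-1, while in T-47D its groups overlapped, 5.72 and 4.62 against 5.8 and 2.29 (difference -4.23, adjusted p = 0.000405). IL4R, the interleukin 4 receptor, was at 13.8 and 14 against 9.66 and 9.8 in T-47D and at 3.22 and 3.39 against 7.55 and 6.87 in ECC-1 (difference -1.51, adjusted p = 0.00119). VASN, a membrane protein that binds TGF-beta, was at 9.16 and 8.52 against 6.45 and 5.05 in T-47D and at 33.3 and 37.7 against 67.3 and 61.8 in ECC-1 (difference -1.44, adjusted p = 0.00512). Both genes were raised in ECC-1 and were lowered in T-47D in the fit without estradiol, and their estimates in T-47D had adjusted p of 0.187 and 0.168 in the 16-library fit.

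**Figure D5:**
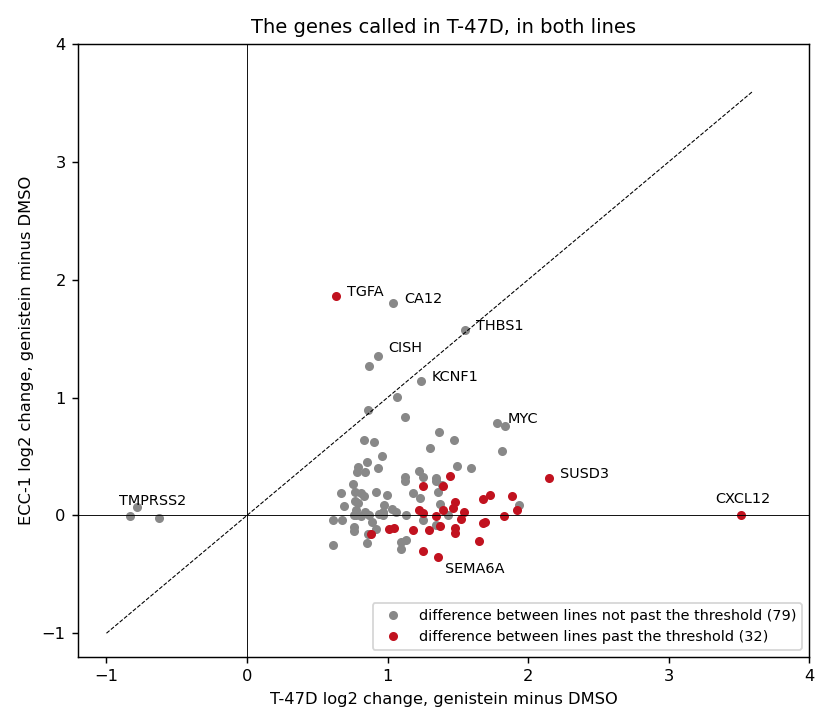
Log2 change, genistein minus DMSO, in ECC-1 on the vertical axis against that in T-47D on the horizontal axis, for the 111 genes called in T-47D. The 32 red points passed the test of the difference between lines. CXCL12 lies at 3.51 on the T-47D axis with an ECC-1 value of 0, while TGFA lies above the dashed line of equal change, at 0.63 and 1.86.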

How the data were processed

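For every library the authors deposited RPKM values of 32062 RefSeq transcripts in a table of its own. Per the labels' protocols, polyadenylated RNA was made into non-directional transposase libraries. Per the submitters' processing notes, Bowtie and hg19 were used; versions, the counting method and the handling of reads that match several places are not given in the sources used here. As no counts were used, depth was read from the spacing of low RPKM values, of which 62.3 to 64.5% under 10 reads lay within 0.1 of a whole read (20% by chance). A transcript of 2 kilobases at 1 RPKM then rests on 34.8 to 58.8 reads.

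For each of 21453 gene symbols the transcript with the highest mean was kept. Each library was scaled by its median ratio to the genes' geometric means, from 7547 genes that reached 5 RPKM in every library (0.9384 to 1.0538). A gene needed 1 RPKM or more in 2 or more libraries, and the 13827 that met this were fitted on log2(scaled RPKM + 0.5) with limma 3.58.1 (R 4.3.3), 8 group means over 16 libraries, eBayes with a mean-variance trend (8 residual and 6.9 prior degrees of freedom). The median 95% interval reached 0.332 to either side. No 2 libraries were identical (0 pairs). Permutation of 2 against 2 libraries cannot go below a two-sided p of 0.333 and was not used. The procedure was tested on simulated data.

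The text names, among called genes whose higher group averaged 1 scaled RPKM or more and no overlap between groups, those with the 30 largest rises and every fall. It also draws on a panel of 10, called members of 32 gene lists, abundant members of lists without calls and the largest differences in other contrasts. SGK3, PTGES, SIAH2, CTSD, SERPINA6, FKBP4, B4GALT1, MYB, MYBL1, DSCAM, SEMA6A, SULF1, GRIK3, ADRA2A, MICB, the falls called only without estradiol, and IL1R1 were chosen after their values were seen. RRS1, BOP1, DDX21 and NOP56 were likewise picked from the 10 ribosome biogenesis genes raised without estradiol. The comparison, genes and lists were chosen with earlier results of these data known. Alternatives changed the scaling, pseudocount, filter, weights, transcript choice, libraries in the fit and replicate block.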

Additional observations from a re-analysis of the deposited data

Results flagged for a closer look

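The genistein response of 39 named genes differed between T-47D and ECC-1 by the interaction term (adjusted p under 0.05 over all genes), as T-47D minus ECC-1 on the log2 scale. The groups hold 2 libraries each, too few to look for a single library far from its group.

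Of these, 22 held on leaving out each of the 4 T-47D libraries in turn. Larger in T-47D were CXCL12 (3.51), OLFM1 (1.88), KCNH1 (1.84), FMN1 (1.74), KCNK5 (1.72), SEMA6A (1.71), TEX14 (1.63), KRT13 (1.59), SFXN2 (1.56), NKAIN1 (1.55), SGK3 (1.55), NXPH3 (1.46), B4GALT1 (1.42) and CADM1 (1.40). Larger in ECC-1 were DHRS3 (-4.23), the near-identical phosphatase genes ALPPL2 (-3.13) and ALPP (-2.85), the matrix metalloprotease gene MMP17 (-2.62), the chloride channel gene ANO1 (-2.24), IL4R (-1.51), VASN (-1.44) and TGFA (-1.23). ALPP and ALPPL2 may share reads, so their separate values are uncertain. In T-47D ALPPL2 was at 0.144 and 0.211 against 0.204 and 0.0929, and ALPP at 0.124 and 0.183 against 0.159 and 0.0805. With such low levels their differences largely repeat their rises in ECC-1. As no ECC-1 library was left out, holding does not test a change carried by the ECC-1 libraries. CXCL12, OLFM1, KCNH1, SEMA6A, TEX14, NKAIN1, NXPH3 and CADM1 had means under 1 scaled RPKM in both ECC-1 groups, as had SUSD3, AMZ1, NPY1R, CACNA1H, FLT4, ELOVL2, HSPB8, PTGES, SULF1, GRIK3 and ADRA2A among those that follow. Where a gene is near 0 in ECC-1, the difference largely repeats its rise in T-47D and is no separate measurement of a weaker response.

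The other differences were lost without some libraries. NPY1R (1.87) was lost without DMSO replicate 2 (1.68, adjusted p = 0.0545) and ADRA2A (1.18) likewise (1.08, adjusted p = 0.0515). SUSD3 (1.83), AMZ1 (1.54) and CRISPLD1 (-0.98) were lost without any one of the 4 libraries, at 1.69 to 1.97, 1.53 to 1.55 and -1.03 to -0.92, with adjusted p of 0.0861 to 0.218, 0.112 to 0.164 and 0.115 to 0.189. FGD3 (1.75), ELOVL2 (1.35) and MICB (1.13) were lost without genistein replicate 2 (1.64, 1.22 and 1.00) or DMSO replicate 2 (1.63, 1.21 and 1.09). CACNA1H (1.51) and C2orf54 (-1.69) were lost without genistein replicate 2 (1.31 and -1.52) or DMSO replicate 1 (1.41 and -1.48). PTGES (1.31) was lost without genistein replicate 1 (1.21) or DMSO replicate 2 (1.15). FLT4 (1.37), RUNX1 (1.11), HSPB8 (1.14), SULF1 (1.35), GRIK3 (1.23) and G0S2 (-2.29) were lost without genistein replicate 2 (1.25, 1.02, 0.97, 1.02, 1.12 and -2.29), DMSO replicate 1 (1.45, 1.01, 1.13, 1.39, 1.13 and -2.29) or DMSO replicate 2 (1.29, 1.21, 1.16, 1.30, 1.34 and -2.29). G0S2 was at 0 in all 4 T-47D libraries, so its difference repeats its rise in ECC-1.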

How the results depend on the processing

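For genistein against DMSO the main count of 111 became 55 with genes of a mean of at least 5 RPKM (fewer genes tested), 206 with array weights, 13 in T-47D libraries alone, 264 without estradiol libraries, 266 without the first estradiol library of each line and 0 in the 4 libraries alone; it was 46 to 99 on leaving out 1 library, where the lone sample of a group is assumed to vary like the others. With the replicate number as a block it was 134 (124 raised, 10 lowered), and the R1 minus R2 differences of DMSO and genistein correlated at 0.513 over 9492 genes; the labels share only a number. For genistein against BPA the 56 calls became 26 (mean of at least 5 RPKM), 96 (array weights), 0 (T-47D alone, with 477 at an unadjusted p under 0.05) and 103 (without all or the first estradiol libraries), 10 to 45 on leaving out a genistein library, and 70 with the block. The difference between lines, 81 calls, became 48, 205, 145 and 145 under the same filter, weights and estradiol choices, 46 to 80 on leaving out 1 library and 107 with the block. Genistein against estradiol, 1 call, gave 0 with a pseudocount of 0.1, with the stricter filter, with array weights and in T-47D alone, 7 without a filter, 3 with the block, 11 without the first estradiol libraries and 0 to 1 on leaving out a genistein library. Where no construction is named, the cause was not tested. For 57 named called genes, over 17 alternatives, 762 of 946 values kept direction and call, 184 lost the call and 0 reversed; 57 of the losses were in the 4-library fit, 45 in T-47D alone and 64 on leaving out 1 library. Reversals occurred in uncalled genes on leaving out 1 library: CYP1A1 (-0.37 to 0.33, with 0.14), DHRS3 (-1.02 to 0.16), ALPPL2 (-0.19 to 0.06, with 0.01), ALPP (-0.17 to 0.01) and ANO1 (-0.04 to 0.44). Depth limits low genes: 3 reads in 2 kilobases are 0.051 to 0.086 RPKM.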
